A study of Mus musculus with 4 samples.

Results

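The claudin and connexin genes were examined in the epidermis of 4 newborn mouse pups of the C57BL/6 strain, all at postnatal day 0. The comparison was between genotypes, with 2 pups in each. Skiv2l fl/fl K14-Cre pups (written Skiv2lf/fl;K14-Cre in the labels) carry floxed alleles of Skiv2l, the helicase of the cytoplasmic RNA exosome, and a Cre recombinase driven constitutively by the keratin 14 promoter, so the deletion is directed to keratinocytes. Their littermates, Skiv2l ctl, carried floxed alleles without Cre, or 1 floxed allele with or without Cre. The labels do not state which of these each pup carried, so the part of Cre itself in the comparison was not tested. Members were all genes whose name was Cldn, Gja, Gjb, Gjc or Gjd followed by a digit. This rule found 54 of the 54752 genes listed, 35 claudins and 19 connexins. The values are FPKM, expression levels that the authors had already scaled for transcript length and library size, so levels of different genes can be set side by side.

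Claudins are membrane proteins with 4 spans that form the strands of tight junctions, and the set of claudins in a strand determines which ions and solutes can pass between cells. In the epidermis tight junctions lie in the granular layer, and mice without claudin 1 lose water through the skin and die soon after birth. Connexins assemble in groups of 6 into hemichannels that dock between neighbouring cells to form gap junctions, through which ions and small metabolites pass. Keratinocytes use several connexins in different layers, and mutations of GJB2 and GJB6 cause inherited skin diseases in humans.

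The deposited tables gave an FPKM above 0.5 for 16138 to 17761 genes per library, and the ratio of coverage to FPKM, which follows the number of aligned bases, ranged from 5.843 to 6.274. Skiv2l itself had an FPKM of 19.3 and 19.1 in Skiv2l ctl and of 10.8 and 8.55 in Skiv2l fl/fl K14-Cre pups, with a log2 fold change of -0.92 (limma adjusted p = 0.00368). Keratinocyte genes marked the tissue in all 4 libraries, with Krt5 at 1759 to 2075 FPKM. Of the 13609 protein-coding genes that exceeded an FPKM of 0.5 in 1 or more libraries, 34.4% passed limma's test on log2(FPKM + 1) at an adjusted p of 0.05. By direction, 8.99% were called higher in Skiv2l fl/fl K14-Cre and 25.4% were called lower. The median log2 fold change of all tested genes was -0.20. With each library scaled to the same median, 13.9% were called higher and 11.9% lower.

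Of the 35 claudins, 8 exceeded an FPKM of 0.5 in at least 1 library, and of the 19 connexins 11 did. The lowest claudin maximum above this limit was 0.730 for Cldn20 and the highest below it was 0.469 for Cldn15. The lowest connexin maximum above it was 0.732 for Gjc3. Of the claudins under the limit, 17 were detected at low values and 10 were listed at 0 in all 4 libraries, the kidney claudin Cldn16 and the stomach and lung claudin Cldn18 among them. Cldn5, the claudin of endothelial cells, reached at most 0.171. Gjd2, the connexin of electrical synapses, was listed at 0 in every library, and Gja3, a connexin of the eye lens, reached 0.230. All 54 members had the same coordinates in GENCODE M21 on GRCm38 as in the deposited tables, and 2 of the claudins, Cldn25-ps and Cldn34-ps, are pseudogenes.

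Connexins moved in both directions. Gjb2 and Gjb6, neighbours on chromosome 14, and Gjb1 on chromosome X were several-fold higher in Skiv2l fl/fl K14-Cre epidermis, while Gjb5, Gjc1 and Gjd3 were lower. In all, 3 connexins were called higher and 5 lower among the 11 tested, which is 27.3% and 45.5%, beside 8.99% and 25.4% of all tested genes. Gja1, the connexin with the highest FPKM in Skiv2l ctl, had a ratio of mean FPKM of 0.846.

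Promoters are printed for Gjb2 and Gjb6, the pair that rose, and for Gjb5, which fell the most of the tested members. Each is the RefSeq sequence from 250 bases before to 50 bases after the annotated start, on GRCm38.p6, read on the minus strand. Capitals mark matches to any of 7 short motifs searched on both strands, listed after the sequences.
Gjb2, chr14:57104653-57104952, minus strand: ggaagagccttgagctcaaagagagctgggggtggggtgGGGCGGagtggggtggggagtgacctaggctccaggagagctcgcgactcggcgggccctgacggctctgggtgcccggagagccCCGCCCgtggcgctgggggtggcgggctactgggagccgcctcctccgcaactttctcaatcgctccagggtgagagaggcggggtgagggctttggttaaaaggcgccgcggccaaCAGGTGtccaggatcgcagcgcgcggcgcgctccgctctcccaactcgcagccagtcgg
Gjb6, chr14:57133562-57133861, minus strand: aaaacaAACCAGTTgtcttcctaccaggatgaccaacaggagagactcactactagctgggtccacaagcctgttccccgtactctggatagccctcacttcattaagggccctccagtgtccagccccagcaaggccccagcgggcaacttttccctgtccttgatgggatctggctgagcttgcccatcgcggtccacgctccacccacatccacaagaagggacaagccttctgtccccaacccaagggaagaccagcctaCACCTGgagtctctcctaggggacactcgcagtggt
Gjb5, chr4:127358115-127358414, minus strand: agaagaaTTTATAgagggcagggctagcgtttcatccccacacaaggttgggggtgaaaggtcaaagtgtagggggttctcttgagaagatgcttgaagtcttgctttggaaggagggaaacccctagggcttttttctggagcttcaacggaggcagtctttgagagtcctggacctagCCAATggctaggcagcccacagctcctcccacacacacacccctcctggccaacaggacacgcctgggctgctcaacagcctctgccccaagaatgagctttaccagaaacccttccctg

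The motifs were the GC box (GGGCGG), found in 35.66% of the 32851 promoters of the table, the CCAAT box (CCAAT, 37.41%), the Snail-type E-box (CAGGTG, 20.21%), the TATA box (TATAAA, 13.62%), the CEBP site (TTNNGCAA, 10.8%), the AP-1 site (TGANTCA, 7.81%) and the Grainyhead-like site (AACCNGTT, 2.09%). In the printed windows no match overlapped another. The Gjb2 window held 2 GC boxes, and a Snail-type E-box that began 9 bases before the start. The Gjb6 window held a Snail-type E-box and a Grainyhead-like site. The Gjb5 window held a TATA-box match near its upstream end and a CCAAT box. It had 54.3% G and C and 3 CpG dinucleotides, against 70.0% and 27 for Gjb2, where the median promoter had 52.7% and 7. The Gjb6 window had 57.3% and 6. Promoters were matched for 13 of the 19 tested members, and Gjc1, Gjd3, Cldn8 and Cldn23 were among those without one.

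Gjb2 encodes connexin 26, which is scarce between the hair follicles of normal adult skin and known to be induced in hyperproliferative epidermis (ENSMUSG00000046352.7, chromosome 14, 57098600 to 57104702, minus strand). It was measured at 77.8 and 76.3 FPKM in Skiv2l ctl and at 683 and 504 FPKM in Skiv2l fl/fl K14-Cre. The pups of each genotype did not overlap, as for 18.2% of all tested genes in this direction. The 2 Skiv2l fl/fl K14-Cre pups differed more from each other than the controls did. The mean rose from 77.1 ± 1.08 (SD, n = 2) to 593 ± 127 (SD, n = 2), a ratio of 7.70. On the log2(FPKM + 1) scale the fold change was 2.91 with a standard error of 0.15 (limma adjusted p = 0.000167), rank 53 of the 13609 tested genes.

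Gjb6 encodes connexin 30, the partner of connexin 26 in many mixed gap junctions of skin and inner ear (ENSMUSG00000040055.9, chromosome 14, 57123303 to 57133611, minus strand). It was listed at 27.5 and 26.3 FPKM in Skiv2l ctl and at 196 and 157 FPKM in Skiv2l fl/fl K14-Cre. Both Skiv2l fl/fl K14-Cre pups were again above both controls, as for 18.2% of all tested genes, and again the first was the higher of them. The mean was 26.9 ± 0.813 (SD, n = 2) against 177 ± 28.0 (SD, n = 2), a ratio of 6.57 and a log2 fold change of 2.66 with a standard error of 0.12 (limma adjusted p = 0.000105). Gjb2 exceeded Gjb6 in every library, by 2.83- and 2.90-fold in the controls and by 3.48- and 3.21-fold in Skiv2l fl/fl K14-Cre.

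Gjb1 encodes connexin 32, best known from hepatocytes and myelinating Schwann cells (ENSMUSG00000047797.14, chromosome X, 101376378 to 101385629, plus strand). It went from 0.822 and 0.764 FPKM in Skiv2l ctl to 9.13 and 8.32 in Skiv2l fl/fl K14-Cre. As a ratio of mean FPKM this was the largest difference among the tested members, 11, but the gene remained far below Gjb2 and Gjb6 in level. Its log2 fold change was 2.44 with a standard error of 0.12 (limma adjusted p = 0.000142), and it was 3.30 at a pseudocount of 0.1. The Schwann cell marker list, with 4 of its 5 genes above 0.5 FPKM, summed to 21.7 and 17.6 FPKM in Skiv2l ctl and to 22.8 and 24.8 in Skiv2l fl/fl K14-Cre. Mbp, a myelin protein gene of this list, was called higher (11.3 and 8.50 against 14.1 and 15.7 FPKM). The part of Schwann cells in the Gjb1 result was not tested.

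**Figure D1:**
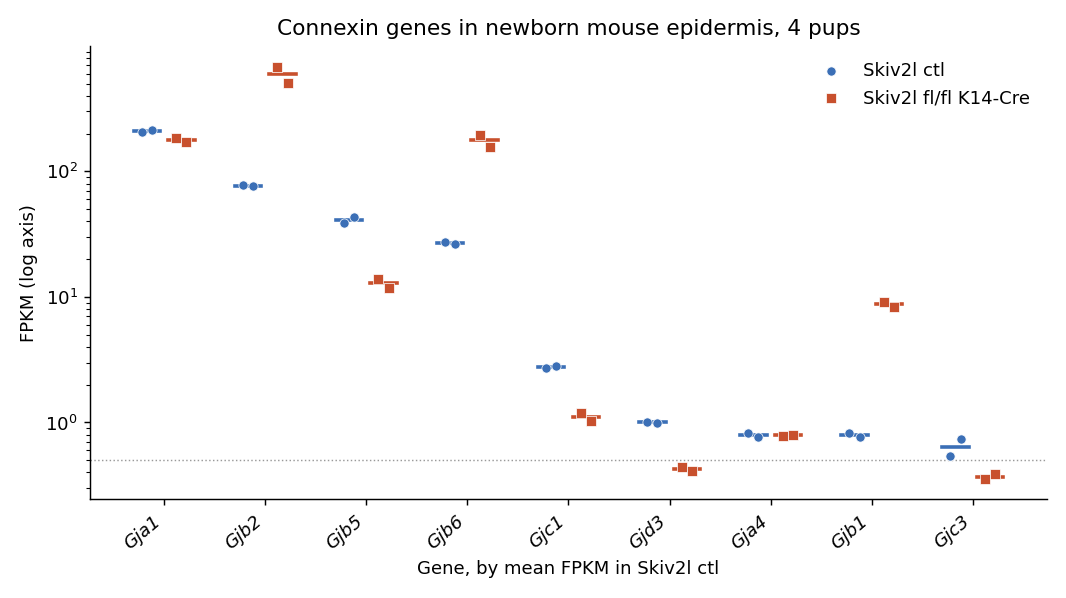
FPKM (log axis) of 9 of the tested connexin genes, in order of their mean in Skiv2l ctl. Circles are the 2 Skiv2l ctl pups, squares the 2 Skiv2l fl/fl K14-Cre pups, short bars the group means, and the dotted line an FPKM of 0.5. Gjb2, Gjb6 and Gjb1 lie higher in Skiv2l fl/fl K14-Cre, and Gjb5 and Gjc1 lower.

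Gjb5, a connexin of stratified epithelia (ENSMUSG00000042357.2, chromosome 4, 127354809 to 127358181, minus strand), fell the most of all tested members on the log2 scale. It went from 38.6 and 43.6 FPKM in Skiv2l ctl to 13.97 and 11.7 in Skiv2l fl/fl K14-Cre. The mean was 3.20-fold higher in Skiv2l ctl, and the log2 fold change was -1.61 with a standard error of 0.12 (limma adjusted p = 0.000510), rank 81 from the bottom of all tested genes. Both Skiv2l fl/fl K14-Cre pups were below both controls, as for 55.3% of all tested genes.

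Gjb2 and Gjb6 together had 105 and 103 FPKM in Skiv2l ctl and 879 and 661 FPKM in Skiv2l fl/fl K14-Cre. Gja3, which lies 40.5 kb from Gjb2 in the chromosome 14 group, stayed under 0.5 FPKM in all libraries. Gja4, a connexin of vascular endothelium, had 0.826 and 0.761 FPKM in Skiv2l ctl and 0.780 and 0.798 in Skiv2l fl/fl K14-Cre. Its log2 fold change was 0.00, with a 95% interval of -0.34 to 0.33. Other protein-coding genes within 200 kb of the chromosome 14 group were looked at, a window chosen after these values were seen. Of the 3 tested, 1 was called, Cryl1, with a log2 fold change of -1.25, where 34.4% of all tested genes were called. Gm4491, which lies between Gjb2 and Gjb6, was not called (log2 fold change 0.37). It had 0.0663 and 0.0686 FPKM in Skiv2l ctl and 0.728 and 0.108 in Skiv2l fl/fl K14-Cre. Zmym2 was not called either (-0.26).

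Outside the beta group the connexins differed less. Gja1, which encodes connexin 43, the main gap junction protein of basal and spinous keratinocytes (ENSMUSG00000050953.10, chromosome 10, 56377330 to 56402513, plus strand), had 204 and 214 FPKM in Skiv2l ctl and 184 and 170.3 in Skiv2l fl/fl K14-Cre. Both Skiv2l fl/fl K14-Cre pups were below both controls, as were 55.3% of all tested genes. The log2 fold change was -0.24 (95% interval -0.45 to -0.03, limma adjusted p = 0.0719). It passed the threshold on TPM (adjusted p = 0.0364) and with quantile normalization (0.0233), and was -0.03 with median scaling.

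Gjc1, which encodes connexin 45 and is known from vascular and cardiac muscle (ENSMUSG00000034520.14, chromosome 11, 102799579 to 102819700, minus strand), fell from 2.74 and 2.79 FPKM to 1.19 and 1.02, with a log2 fold change of -0.84 (limma adjusted p = 0.00532). Without either Skiv2l ctl library its adjusted p was 0.0520 and 0.0547. Gjd3 (ENSMUSG00000047197.1, chromosome 11, 98982180 to 98983016, minus strand) had 1.01 and 0.998 FPKM in Skiv2l ctl and 0.441 and 0.411 in Skiv2l fl/fl K14-Cre, with a log2 fold change of -0.49 (limma adjusted p = 0.0381). That call was lost in 8 of 12 alternatives, with all biotypes, median scaling, quantile normalization, the replicate block and each library left out, where the adjusted p was 0.0636 to 0.138. Gjc3, which is expressed by myelinating glia, had 0.536 and 0.732 FPKM against 0.356 and 0.386, and its difference had a 95% interval of -0.61 to 0.11 on the log2 scale.

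Markers of other cell types were measured beside the connexins and claudins. Their calls stand beside 25.4% of all tested genes called lower and 8.99% called higher. Of the endothelial markers 2 of 7 exceeded 0.5 FPKM, their sum was 2.69 to 2.998 FPKM in Skiv2l ctl and 1.55 to 3.16 in Skiv2l fl/fl K14-Cre, and Emcn was listed at 0 throughout. The leukocyte markers summed to 18.5 and 26.5 FPKM in Skiv2l ctl and to 10.5 and 9.65 in Skiv2l fl/fl K14-Cre, with 2 of 5 called lower and Cd207 at no more than 0.0417. Fibroblast markers summed to 61.3 and 69.0 FPKM against 21.9 and 25.04, mostly Dcn, and 2 of 6 were called lower, Dcn and Col1a2. Pdgfra went the other way, from 0.299 and 0.250 FPKM to 0.789 and 0.668, without a call, and Col1a1 and Col3a1 overlapped between genotypes. For erythroid markers the sums were 134 and 125 FPKM against 62.0 and 80.7, with 4 of 5 called lower. Those of melanocytes (47.5 to 54.4 against 50.6 to 63.5 FPKM), muscle (1.96 to 2.10 against 1.63 to 8.79), inner root sheath (22.4 to 43.7 against 23.0 to 23.4) and simple epithelium (8.80 to 16.1 against 8.93 to 14.8) had overlapping ranges, with 1 of the melanocyte genes called higher and 1 of inner root sheath lower. Their part in the connexin and claudin results was not tested.

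The make-up of connexin transcripts differed between genotypes. Summed over all 19 genes, connexin FPKM was 483 and 500.3 in Skiv2l ctl and 1166 and 920.3 in Skiv2l fl/fl K14-Cre, a ratio of 2.12 for the means. Gja1 supplied 42.3% and 42.8% of this sum in Skiv2l ctl but 15.8% and 18.5% in Skiv2l fl/fl K14-Cre. Gjb2 supplied 16.1% and 15.2% in the controls against 58.6% and 54.7%, and Gjb6 5.69% and 5.26% against 16.8% and 17.0%. For such a sum, 2 pups against 2 allow no two-sided exact permutation p under 0.333, and none was computed.

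**Figure D2:**
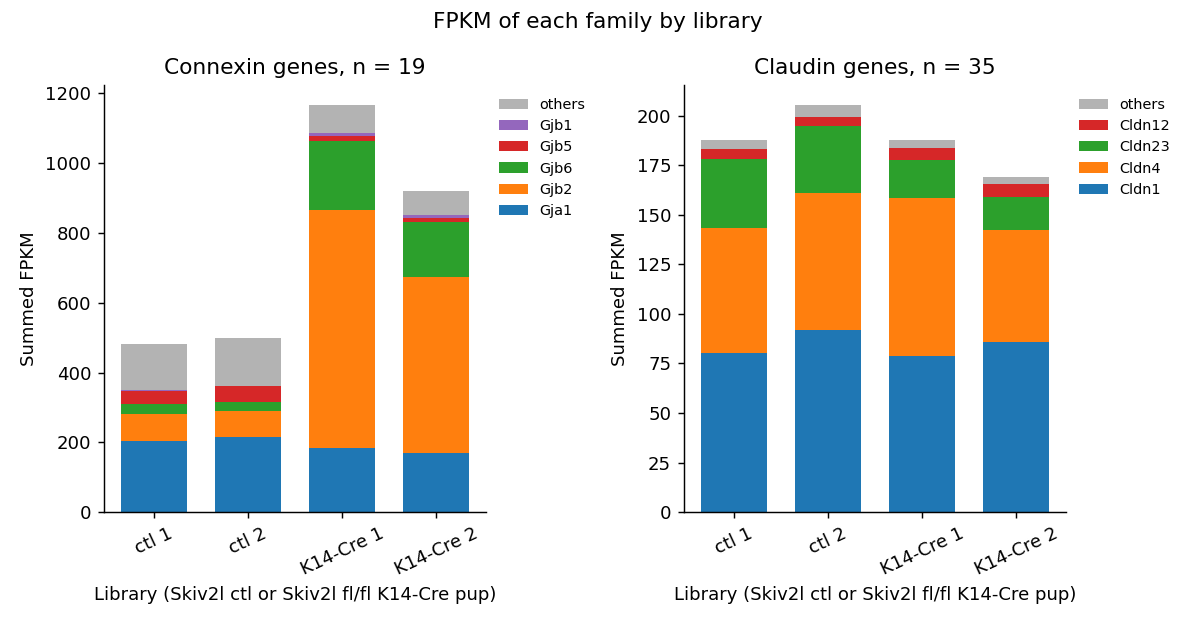
Summed FPKM of the 19 connexin genes (left) and 35 claudin genes (right) in each library, stacked by gene on axes that start at 0 and differ in scale. Connexin totals are 483 and 500.3 for Skiv2l ctl and 1166 and 920.3 for Skiv2l fl/fl K14-Cre, where Gjb2 is the largest share, while claudin totals range from 169 to 205.

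The claudins changed little by comparison. Of the 8 tested, 1 was called lower, Cldn23, and 0 were called higher by limma, where 1 was higher at an unadjusted p under 0.05. This is 12.5% lower against the 25.4% of all tested genes. Claudin FPKM summed to 188 and 205 in Skiv2l ctl and to 188 and 169 in Skiv2l fl/fl K14-Cre, a ratio of 0.908 for the means, which was 1.05 with median scaling.

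Cldn1, which seals the epidermal tight junction and has the highest mean FPKM of the family in both genotypes (ENSMUSG00000022512.3, chromosome 16, 26356642 to 26371841, minus strand), had 80.0 and 91.9 FPKM in Skiv2l ctl and 79.0 and 86.0 in Skiv2l fl/fl K14-Cre. The groups overlapped, and the log2 fold change was -0.06 (95% interval -0.30 to 0.19, limma adjusted p = 0.678). With median scaling the sign was the opposite, at 0.15.

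Cldn4, a granular-layer claudin and receptor for a Clostridium enterotoxin (ENSMUSG00000047501.3, chromosome 5, 134945119 to 134946934, minus strand), had 63.1 and 69.0 FPKM in Skiv2l ctl and 79.6 and 56.3 in Skiv2l fl/fl K14-Cre. In the first Skiv2l fl/fl K14-Cre pup it was slightly above Cldn1. The controls lay between the 2 Skiv2l fl/fl K14-Cre pups, which differed from each other more than the genotypes did. Its log2 fold change was 0.02 (95% interval -0.38 to 0.42, limma adjusted p = 0.933), and it was -0.03 on TPM.

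Cldn23, a suprabasal claudin of skin and gut (ENSMUSG00000055976.6, chromosome 8, 35824712 to 35826559, minus strand), was the exception. It fell from 35.0 and 34.0 FPKM in Skiv2l ctl to 19.1 and 16.6 in Skiv2l fl/fl K14-Cre. Both of the latter were below both controls, as for 55.3% of all tested genes. The mean went from 34.5 ± 0.723 to 17.8 ± 1.83 (SD, n = 2 each), 1.93-fold higher in Skiv2l ctl. The log2 fold change was -0.92 with a standard error of 0.10 (limma adjusted p = 0.00180), and it kept its call in all 13 alternatives. Cldn1 was 2.29 and 2.70 times the level of Cldn23 in Skiv2l ctl and 4.13 and 5.20 times in Skiv2l fl/fl K14-Cre.

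Cldn12, which lacks the usual carboxy-terminal PDZ-binding motif of claudins (ENSMUSG00000046798.14, chromosome 5, 5489537 to 5514958, minus strand), had 4.85 and 4.61 FPKM in Skiv2l ctl and 5.88 and 6.60 in Skiv2l fl/fl K14-Cre. Both Skiv2l fl/fl K14-Cre pups were above both controls, as for 18.2% of all tested genes. Its log2 fold change of 0.34 had an adjusted p of 0.0623 (limma), which was 0.0238 with median scaling and 0.0193 with quantile normalization.

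The other tested claudins were near the detection limit. Cldn8, a claudin of distal kidney tubules and colon, had 1.09 and 1.83 FPKM in Skiv2l ctl and 0.811 and 1.09 in Skiv2l fl/fl K14-Cre. Cldn7, a claudin of many simple epithelia, had 0.796 and 1.04 against 0.619 and 0.743. Cldn8 overlapped between genotypes. Cldn7 did not, and both Skiv2l fl/fl K14-Cre pups were below both controls, as for 55.3% of all tested genes. Their log2 fold changes, -0.32 and -0.19, had 95% intervals that reached from -0.78 to 0.14 and from -0.55 to 0.17.

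Cldn24 had 0.6995 and 1.02 FPKM in Skiv2l ctl and 0.471 and 0.164 in Skiv2l fl/fl K14-Cre (limma adjusted p = 0.0794), but 67.57% of the 75-base stretches of its transcript occur in Cldn22 or Wwc2, so its level is uncertain. Cldn20 had 0.465 and 0.584 against 0.730 and 0.156, so that both extremes were Skiv2l fl/fl K14-Cre pups. Of the other 17 tested members, 16 shared no 75-base stretch with another gene and Gjc3 shared 0.56%, and none of the 19 had an exon that overlapped one of another gene.

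**Figure D3:**
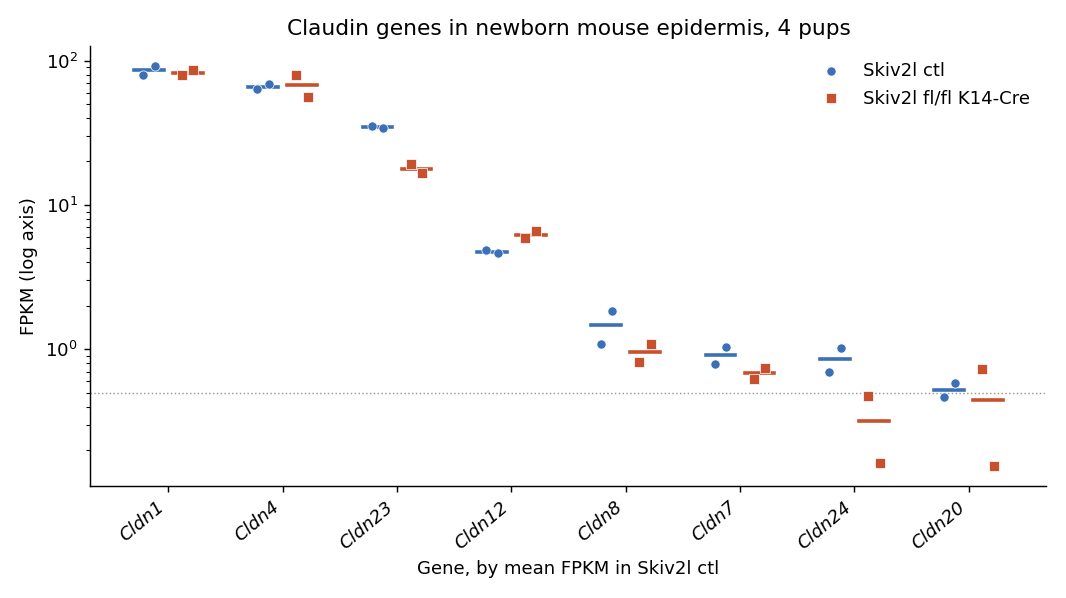
FPKM (log axis) of the 8 tested claudin genes, in order of their mean in Skiv2l ctl. Circles are the 2 Skiv2l ctl pups, squares the 2 Skiv2l fl/fl K14-Cre pups, short bars the group means, and the dotted line an FPKM of 0.5. Cldn1 and Cldn4 overlap between genotypes, while Cldn23 is lower in Skiv2l fl/fl K14-Cre.

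**Figure D4:**
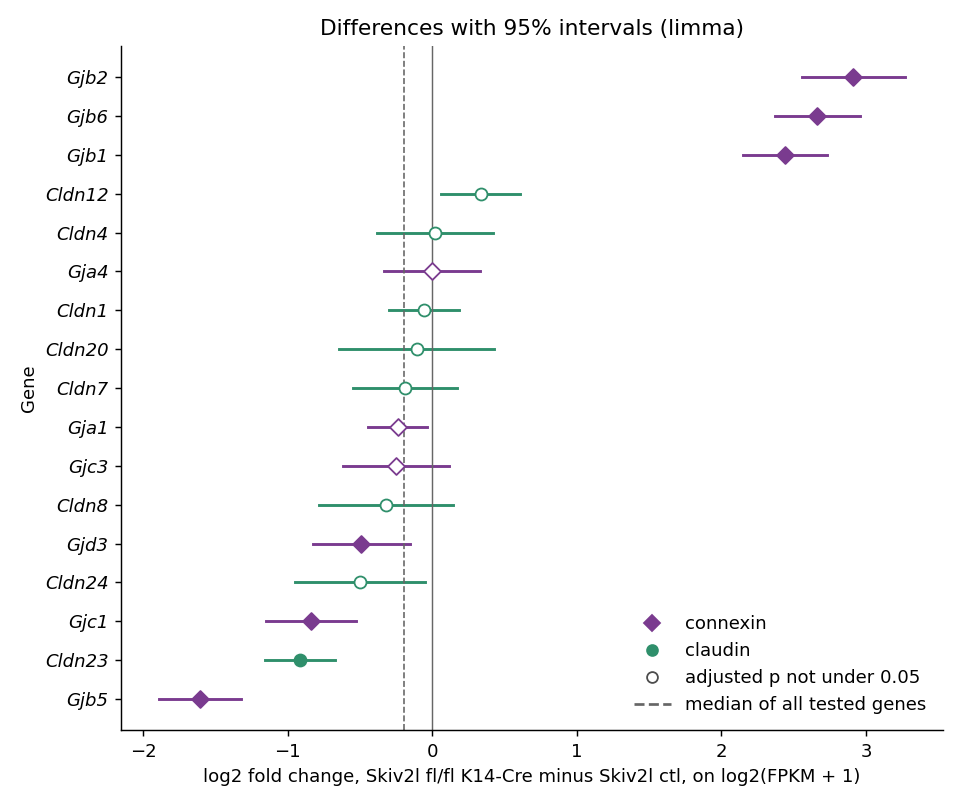
Log2 fold change on the log2(FPKM + 1) scale, with limma's 95% interval, of 17 of the 19 tested members. Diamonds are connexins, circles claudins, filled symbols have an adjusted p under 0.05, and the dashed line is the median of all tested genes at -0.20. Differences range from -1.61 for Gjb5 to 2.91 for Gjb2.

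Markers of the epidermal layers moved as well, where 25.4% of all tested genes were called lower and 8.99% higher. Of 5 granular-layer markers, 3 were called lower, Lor, Flg2 and Casp14, and the list summed to 3852 and 3724 FPKM in Skiv2l ctl and to 2713 and 2575 in Skiv2l fl/fl K14-Cre. Of 5 basal markers 2 were called higher, Krt14 and Itgb4, and the sums were 4178 and 4363 FPKM against 9621 and 9547, mostly through Krt14, while Krt5 was 2003 and 2075 against 1761 and 1759. In bulk RNA fewer cells of a layer and less transcript per cell cannot be told apart, and the part of layer proportions in the fall of Gjb5 and Cldn23 was not tested.

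Claudins act with other tight junction proteins, and among these, as among all tested genes, more were called lower than higher. Of 34 listed partners 31 were tested, with 13 called lower (41.9%, against 25.4% of all tested genes) and 2 higher (6.45%, against 8.99%), and a median log2 fold change of -0.23 beside -0.20 for all tested genes. With median scaling 10 were lower (32.3%, against 11.9% of all tested genes) and 4 higher (12.9%, against 13.9%). Without the first or the second Skiv2l ctl library 5 were called lower, against 805 and 810 of all tested genes. Cgn, which encodes the cytoplasmic adaptor cingulin, went from 28.5 and 27.4 FPKM to 12.3 and 10.6, a log2 fold change of -1.22 (limma adjusted p = 0.000811). The scaffold Magi1 (-1.04), the tricellular junction protein Marveld2 or tricellulin (-1.03) and the scaffold Tjp3 (-1.02) followed it. Occludin, the first membrane protein found in tight junctions, is encoded by Ocln and went from 12.2 and 12.2 FPKM to 6.30 and 5.20 (log2 fold change -0.98).

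Tjp1, a scaffold that assembles claudins into strands, was among the partners not called. It had 36.4 and 35.7 FPKM in Skiv2l ctl and 34.8 and 33.3 in Skiv2l fl/fl K14-Cre. F11r, which encodes the adhesion molecule JAM-A, rose from 30.6 and 34.2 FPKM to 51.2 and 61.3 (log2 fold change 0.77, limma adjusted p = 0.00509). Tjp1, Ocln and F11r were singled out after their values were seen.

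Relatives of the claudins in the wider superfamily were split. Of 12 listed genes 8 were tested, with 4 called higher (50%, against 8.99% of all tested genes) and 2 lower (25%, against 25.4%). Perp, a p63 target needed for desmosomes, rose from 897 and 995 FPKM to 1396 and 1424 (log2 fold change 0.58). Emp3 (0.76), Cldnd1 (0.73) and Pmp22, a myelin protein gene (0.68), rose with it, and Emp1 (-0.66) and Emp2 (-0.61) fell. Without the first or the second Skiv2l ctl library fewer of these were called higher, as were fewer of all tested genes.

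Among 6 genes of claudin-binding proteins and the matriptase-prostasin protease axis, 0 were called higher by limma, 0 also at an unadjusted p under 0.05, and 1 was called lower. These are 0% and 16.7%, beside 8.99% and 25.4% of all tested genes, and 6 genes are too few to set the shares apart. With median scaling, no filter, all biotypes or no trend 0 of them were lower, where 11.9% to 24.1% of all tested genes were. The call was also lost without any 1 library other than the first of Skiv2l fl/fl K14-Cre. Fewer of all tested genes were then called lower too. The median of this list was -0.14, beside -0.20 for all tested genes.

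Of 11 adherens junction genes, which join the actin belts of neighbouring cells, 3 were called higher and 3 lower, 27.3% each, where all tested genes had 8.99% and 25.4%. Nectin3 (-1.001), Nectin2 (-0.53) and the beta-catenin gene Ctnnb1 (-0.52) were lower, and Nectin1 (0.45) was higher with Cdh3 and Afdn. Cdh1, which encodes E-cadherin, had 228 and 238 FPKM against 226 and 206. Median scaling gave 5 higher (45.5%, against 13.9% of all tested genes) and 3 lower (27.3%, against 11.9%). Without the first or the second Skiv2l ctl library fewer of the list were called, as were fewer of all tested genes. Other large-pore channels, the pannexin, LRRC8 and CALHM genes, had 8 of 14 tested, with 2 called higher, Lrrc8c (0.75) and Lrrc8a (0.62), and 1 lower, Lrrc8b (-1.45). That is 25% and 12.5% of them, beside 8.99% and 25.4% of all tested genes. Panx1, the pannexin known from keratinocytes, had 5.92 and 6.37 FPKM in Skiv2l ctl and 5.72 and 4.55 in Skiv2l fl/fl K14-Cre. Without either Skiv2l ctl library, or the first of Skiv2l fl/fl K14-Cre, fewer of these channels and fewer of all tested genes were called higher.

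**Figure D5:**
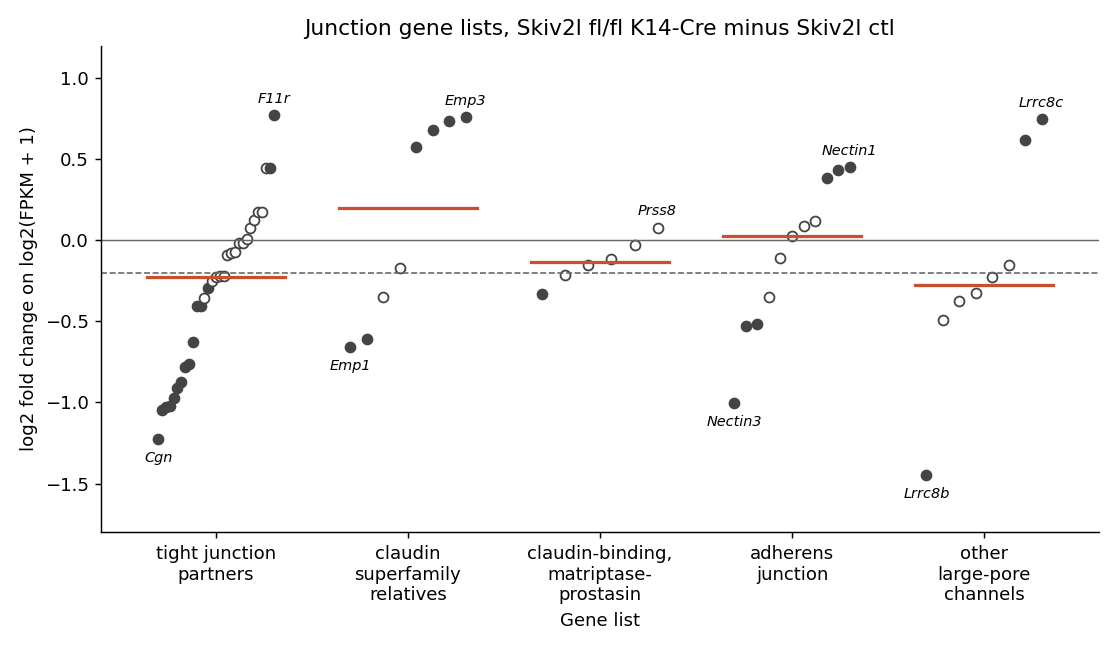
Log2 fold change on the log2(FPKM + 1) scale of the tested genes of 5 junction gene lists. Each point is a gene, filled where the limma adjusted p was under 0.05, red bars are list medians, and the dashed line is the median of all tested genes. Tight junction partners reach from Cgn at -1.22 to F11r at 0.77.

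Over the 13 alternatives the rises of Gjb2, Gjb6 and Gjb1 and the falls of Gjb5 and Cldn23 kept their direction and their call. The log2 fold change ranged from 2.69 to 3.13 for Gjb2, from 2.50 to 2.87 for Gjb6, from 2.38 to 3.30 for Gjb1 and from -1.73 to -1.41 for Gjb5. Without the first or the second Skiv2l ctl library fewer connexins were called lower, and fewer of all tested genes as well. Gjb5 stayed among those called.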

How the data were processed

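RNA from the epidermis of 4 pups, 2 per genotype, was sequenced as total RNA, and 1 table per library was analysed. The study ran its reads through the Astrocyte RNASeq workflow. The FPKM deposited by the authors were used for all results and the TPM deposited by the authors as an alternative, and the coverage signal deposited by the authors served to gauge depth. The submitters' processing notes name GRCm38. Aligner, counter and strandedness are not given in the sources used here, and without read counts the counting error of a value is unknown.

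FPKM were summed per gene identifier. Protein-coding genes were taken from GENCODE M21 (21921 of 54752), and those over an FPKM of 0.5 in 1 library or more (13609) were fitted by limma 3.58.1 (R 4.3.3) on log2(FPKM + 1), with an eBayes trend. Two-sided p-values were adjusted by Benjamini-Hochberg across these genes, and the threshold was 0.05. Fold changes on this scale are smaller than FPKM ratios for genes of low level. The pups are separate animals numbered 1 and 2 within a genotype. Named were all members above 0.5 FPKM in at least 1 library, up to 4 called genes of each junction list with the largest change, and Skiv2l, but some genes that this rule names are not reported here, though they stay in counts, sums and medians. Other genes, such as layer markers and cluster neighbours, were named after their values were seen. Members and lists were chosen with earlier results of these data known. The alternatives were no filter, a stricter one (FPKM over 1 in 2 libraries or more), a pseudocount of 0.1, all biotypes, TPM, median scaling, quantile normalization, no trend, a replicate block, and each library left out. The fit was tested on simulated data. Shared 75-base stretches were counted on the GENCODE M21 transcripts, and promoters came from RefSeq on GRCm38.p6.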

Additional observations from a re-analysis of the deposited data

How the results depend on the processing

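All 19 tested members were refitted under 13 alternatives, except that 13 of them passed the stricter filter. No called member changed direction. Of those not called, Cldn1 turned to 0.154 with median scaling and ranged from -0.155 to 0.0417 with 1 library left out, being above 0 without the second Skiv2l ctl library and, at 0.00410, without the first pup of Skiv2l fl/fl K14-Cre. Cldn4 turned to -0.0274 on TPM and ranged from -0.226 to 0.267 with 1 library left out. Cldn20 turned to 0.0560 with quantile normalization and ranged from -0.398 to 0.183. Gja4 turned to 0.0906 with median scaling and 0.17 with quantile normalization, and ranged from -0.0295 to 0.0224. All are log2 fold changes.

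With median scaling 1894 of all tested genes were higher and 1623 lower, 1 claudin was higher (Cldn12), and the summed claudin ratio was 1.05. Tight junction partners then had 4 higher, adherens junction genes 5 higher, and claudin-binding genes 1 higher and 0 lower. With quantile normalization 1917 of all tested genes were lower and 1 claudin was higher. Without a filter 1 claudin was higher, Cldn17 (0 and 0 against 0.122 and 0.169 FPKM), named after its values were seen, 1 tight junction partner and 1 superfamily relative were higher, and 0 claudin-binding genes were lower. With all biotypes 0 claudin-binding genes were lower, on TPM 2 were lower and 1 tight junction partner was higher, and without a trend 0 and 1. With 1 library left out, genes called higher ranged from 497 to 1146 and genes called lower from 805 to 3135, and connexins called lower from 2 to 4. The ranges for genes higher and lower were 0 to 3 and 5 to 12 for tight junction partners, 0 to 3 and 1 to 2 for superfamily relatives, 0 to 3 and 0 to 4 for the adherens junction, 0 to 2 and 1 to 3 for other channels, and 0 to 0 and 0 to 1 for claudin-binding genes. The remaining library of a genotype was then assumed to vary like the other genotype. The causes were not tested.

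With the replicate number as a block, 4 connexins were called lower and 3 higher, and Gjd3 had an adjusted p of 0.0636. The deviations of same-numbered libraries correlated at -0.0770 over genes, so the numbers were not taken as a pairing. The number of pups, 2 per genotype, limits every value.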
